A study of Mus musculus with 6 samples.

Results

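The genes described here are 10 genes that mark or drive the first steps of lymphoid development: *Rag1*, *Rag2*, *Dntt*, *Il7r*, *Vpreb1*, *Vpreb3*, *Igll1*, *Lef1*, *Notch1* and *Satb1*. They were taken by symbol from 53458 annotated genes, and all 10 were found. Their levels were compared in acute myeloid leukemia (AML) blasts from the bone marrow of 3 Cebpa-/p30 Tet2+/+ mice (mice 19, 23 and 24) and 3 Cebpa-/p30 Tet2-/- mice (mice 5, 7 and 8), with 1 RNA-seq library per mouse. The labels give the strain C57BL/6, and per the study's methods the blasts came from C57BL/6J donor marrow grown in C57BL/6J.SJL recipients. The question was how the loss of TET2, an enzyme that oxidizes 5-methylcytosine, bears on these genes in blasts that make the short p30 form of the myeloid transcription factor CEBPA.

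Both genotypes carry 1 deleted and 1 p30 allele of *Cebpa*, so no group here makes the full-length p42 form, and no group has normal marrow. The floxed alleles were recombined by Mx1-Cre, an interferon-inducible Cre that was switched on with poly(I:C) in mice transplanted with marrow from the donor lines after lethal irradiation. Donor-derived blasts were taken from moribund recipients as live CD45.2+ cells without CD3, B220 or Ter119, a gate that leaves out most T cells, B-lineage cells and erythroid cells. The labels used here give no age of the mice, and each library holds RNA of sorted cells from 1 animal.

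Libraries held between 13036643 and 32855343 estimated reads, with the most in Tet2-/- mouse 5. Between 5.18% and 12.4% of the reads fell on the 10 most abundant genes of a library. The granule genes *Mpo*, *Elane* and *Prtn3*, which define immature granulocytic cells, were abundant in every mouse. *Mpo* had 4530, 4110 and 4230 CPM in Tet2+/+ mice and 3390, 3090 and 2660 CPM in Tet2-/- mice, where CPM is the read count scaled for library size by trimmed mean of M values (TMM), and the genotypes did not overlap. *Tet2* itself was counted over the whole gene at 73.6, 79.5 and 98.4 CPM in Tet2+/+ mice and at 111, 79.4 and 96.7 CPM in Tet2-/- mice. The exons removed from the floxed allele are not given in the sources used here, so a whole-gene count does not check the deletion.

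Lymphoid progenitors assemble their antigen receptor genes by V(D)J recombination. RAG1 and RAG2 form the recombinase that cuts the gene segments, and terminal deoxynucleotidyl transferase, encoded by *Dntt*, adds bases at the joints. In pre-B cells VPREB1 and the lambda5 protein encoded by *Igll1* form the surrogate light chain, which pairs with the immunoglobulin heavy chain at the surface. Signals through the IL-7 receptor and NOTCH1, and the nuclear proteins LEF1 and SATB1, guide progenitors towards the B and T lineages, and several of these genes are already transcribed at a low level in multipotent progenitors.

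Promoter windows of RefSeq (GRCm38.p6) show how the members differ in sequence. A window runs from 250 bases before to 50 bases after an annotated start, and 17 windows were found for the 10 members. CpG dinucleotides, the sites on which TET2 acts once they are methylated, are in capitals in the windows of *Rag2*, the member with the lowest p, and of *Satb1*, whose annotated starts differ most. In the windows of *Vpreb1* and *Igll1*, neighbours on chromosome 16 that both had most reads in mouse 5, capitals mark the E-box CACCTG on either strand, a motif read by E proteins of the B lineage.
Rag2 window, chr2:101624462-101624761, + strand: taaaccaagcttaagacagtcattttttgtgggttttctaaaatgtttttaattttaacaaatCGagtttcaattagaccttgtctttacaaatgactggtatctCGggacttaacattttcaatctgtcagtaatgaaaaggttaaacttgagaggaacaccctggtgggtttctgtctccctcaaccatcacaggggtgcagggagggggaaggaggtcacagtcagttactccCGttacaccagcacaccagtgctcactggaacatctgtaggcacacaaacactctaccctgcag
Satb1 window at the start of Satb1-204, chr17:51833241-51833540, - strand: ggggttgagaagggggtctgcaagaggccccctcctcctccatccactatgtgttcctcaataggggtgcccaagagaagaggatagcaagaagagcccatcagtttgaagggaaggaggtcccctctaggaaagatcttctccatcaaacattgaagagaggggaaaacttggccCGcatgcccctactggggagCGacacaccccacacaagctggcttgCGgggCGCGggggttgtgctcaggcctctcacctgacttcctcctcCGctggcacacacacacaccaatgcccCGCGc
Satb1 window at the start of Satb1-208, chr17:51832598-51832897, - strand: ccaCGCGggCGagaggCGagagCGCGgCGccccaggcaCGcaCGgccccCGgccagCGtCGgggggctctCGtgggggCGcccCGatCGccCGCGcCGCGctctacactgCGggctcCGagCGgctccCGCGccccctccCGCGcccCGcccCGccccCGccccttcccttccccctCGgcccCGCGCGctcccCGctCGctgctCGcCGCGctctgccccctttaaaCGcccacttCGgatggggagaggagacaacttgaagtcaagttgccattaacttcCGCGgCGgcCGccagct
Vpreb1 window, chr16:16869206-16869505, - strand: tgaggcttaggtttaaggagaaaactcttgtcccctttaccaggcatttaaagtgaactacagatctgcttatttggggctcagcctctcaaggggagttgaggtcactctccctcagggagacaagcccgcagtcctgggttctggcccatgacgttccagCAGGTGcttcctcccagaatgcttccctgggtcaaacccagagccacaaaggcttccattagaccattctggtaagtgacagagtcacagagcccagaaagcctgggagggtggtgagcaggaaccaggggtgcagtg
Igll1 window, chr16:16863936-16864235, - strand: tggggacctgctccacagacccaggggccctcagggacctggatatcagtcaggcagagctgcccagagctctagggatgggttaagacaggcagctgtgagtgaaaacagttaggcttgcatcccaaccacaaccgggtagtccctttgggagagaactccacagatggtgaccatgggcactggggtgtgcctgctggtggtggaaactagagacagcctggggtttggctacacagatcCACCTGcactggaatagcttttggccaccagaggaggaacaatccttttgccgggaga

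The lymphoid-restricted members had few CpG. The single windows of *Rag1*, *Rag2* and *Vpreb3* held 3 CpG each, those of *Dntt*, *Vpreb1* and *Igll1* held 2 each, and that of *Il7r* held 1. The median over 32817 windows of 300 bases in RefSeq was 7. The window of *Notch1* held 23 CpG, the 4 windows of *Lef1* held between 5 and 21, and the 5 windows of *Satb1* held between 3 and 45, and of these 10 windows only that of Satb1-213 held as few as the former. Methylation was not measured in these libraries.

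**Figure D1:**
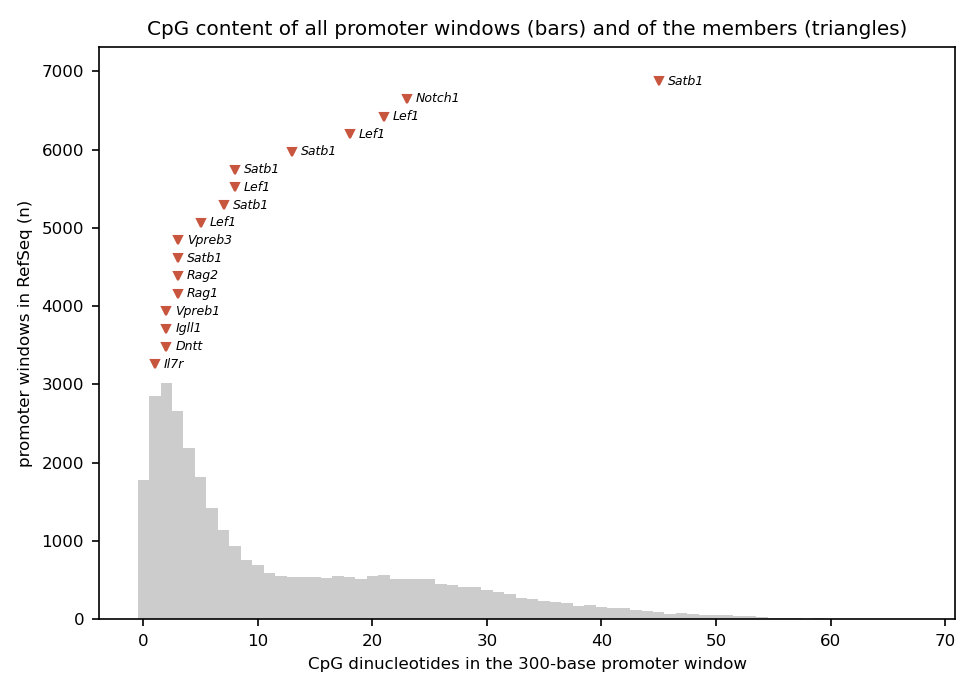
CpG dinucleotides per 300-base promoter window (x axis) of all RefSeq windows (grey bars, number of windows on the y axis) and of the 17 windows of the members (red triangles, stacked for legibility, with no meaning to their height). *Rag1*, *Rag2*, *Dntt*, *Il7r*, *Vpreb1*, *Vpreb3* and *Igll1* hold 1 to 3 CpG, below the median of 7, and the CpG-rich *Satb1* window holds 45.

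Motifs were searched on both strands, and matches were allowed to overlap. The E-box CAGCTG was found in 4 of the 17 windows (16.3% of all windows) and the E-box CACCTG in 6 (20.2% of all windows). The Ikaros core TGGGAA was found in 6 of the 17 (25.6% of all windows), of which 5 belong to *Lef1* or *Satb1*. The 17 windows are not all separate, since a pair of *Lef1* windows and a pair of *Satb1* windows overlap. The palindrome TTGCGCAA, an optimal site of the C/EBP family to which CEBPA belongs, was in 0 of the 17 windows and in 0.183% of all, and the palindromic site of early B cell factor was in 0 of the 17 and in 0.905% of all. The *Igll1* window held both E-boxes and the *Vpreb1* window held CACCTG. These matches describe the letters in the windows and are not measured sites.

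The members spanned a wide range of levels. Between genes, levels were compared as TPM, which scales reads by transcript length as well as depth. *Satb1* had 11.5 TPM on average over the 6 mice, with a range from 0.237 to 19.6. For *Notch1* the sum over all transcripts was 148 TPM, with a range from 53.8 to 289, but most of that sum came from very short noncoding transcripts to which few reads were assigned. The full-length coding transcript Notch1-201 alone had 9.99 TPM, with a range from 7.65 to 16.9, and took between 94% and 96.8% of the *Notch1* reads. *Satb1* and full-length *Notch1* therefore could not be ordered beyond their spread. Within mice, *Satb1* was the higher in all but mouse 8, where it had 0.237 TPM against 8.79 TPM.

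*Il7r* followed at 1.40 TPM, with a range from 0.552 to 3.16, below full-length *Notch1* in every mouse and below *Satb1* in every mouse but mouse 8, where *Satb1* had 0.237 TPM and *Il7r* 0.552. The order among *Vpreb1* (0.329 TPM), *Vpreb3* (0.234 TPM), *Lef1* (0.214 TPM), *Rag2* (0.196 TPM), *Igll1* (0.138 TPM) and *Dntt* (0.0932 TPM) did not exceed the spread between mice, since each of their ranges overlapped the next. *Rag1* had the lowest mean, 0.0046 TPM with a highest value of 0.0105, and its range overlapped those of *Dntt* and *Vpreb3*. *Notch1* and *Satb1* together held between 95.3% and 99.1% of all reads of the 10 members in each mouse. The other 8 genes shared between 63 and 261 reads per library, most of them from *Il7r* (552 reads over all 6 libraries). Counting error therefore adds to the spread between mice in these genes, least in *Il7r*.

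**Figure D2:**
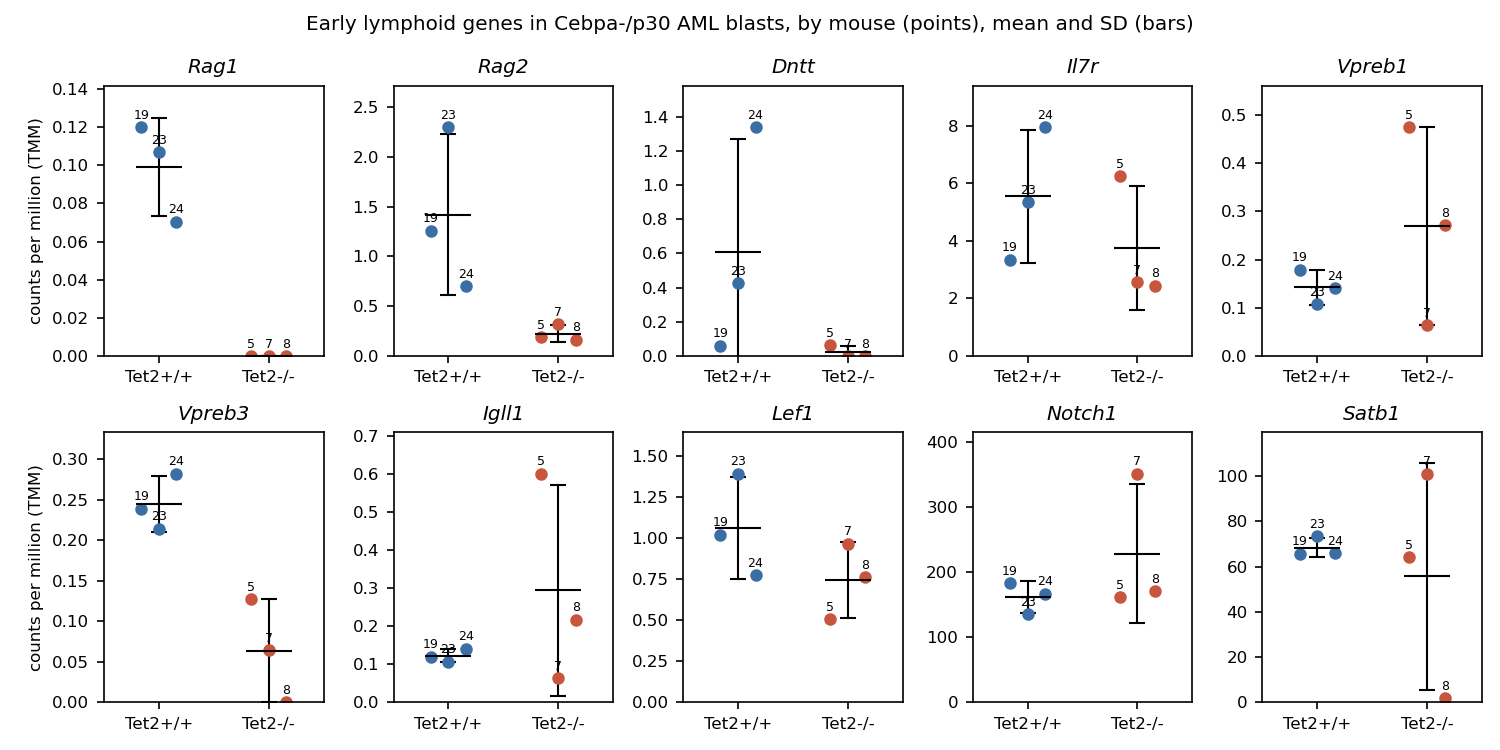
TMM-normalized CPM (y axis, linear, a separate scale for each gene) of the 10 members in 3 Tet2+/+ mice (blue) and 3 Tet2-/- mice (red), with the mouse number beside each point. Horizontal bars are means and vertical bars SD (n = 3), which are cut off at 0 where they would extend below it. *Rag2* and *Vpreb3* show no overlap of genotypes, as do 14.4% of all genes tested (7.94% lower in Tet2-/-). *Rag1*, which was not tested, also shows no overlap, and Tet2-/- mouse 8 stands far below the other 5 mice in *Satb1*.

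The genotypes were compared with edgeR's quasi-likelihood test across 22170 genes whose counts, scaled for library size, summed to at least 10. Of the members, 9 passed this minimum, and *Rag1* did not. *Dntt* and *Vpreb3* reached it through the Tet2+/+ mice alone, and *Vpreb1* and *Igll1* through the Tet2-/- mice alone, so counts over the 9 are a description only. At an adjusted p under 0.05 (edgeR with Benjamini-Hochberg adjustment), 0 of the 9 were called, beside 0.0451% of all genes tested lower in Tet2-/- and 0.0% higher. At an unadjusted p under 0.05, *Rag2* and *Dntt* were lower, beside 5.12% of all genes, and 0 members were higher, beside 3.0% of all genes. DESeq2 on the same counts called *Rag2* alone of the members, beside 1.47% of all genes lower and 1.74% in either direction. It gave no adjusted p for *Vpreb1*, *Vpreb3* and *Igll1*. The median log2 fold change of the 9, as Tet2-/- against Tet2+/+, was -0.53, with 6 lower and 3 higher, and that of all genes tested was 0.0.

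Each library came from a separate mouse, so the p-values measure the spread between mice. The exact permutation test used for single values cannot reach a two-sided p below 0.1 with 3 mice on each side. In bulk RNA, fewer cells of a type and less RNA per cell cannot be told apart.

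**Figure D3:**
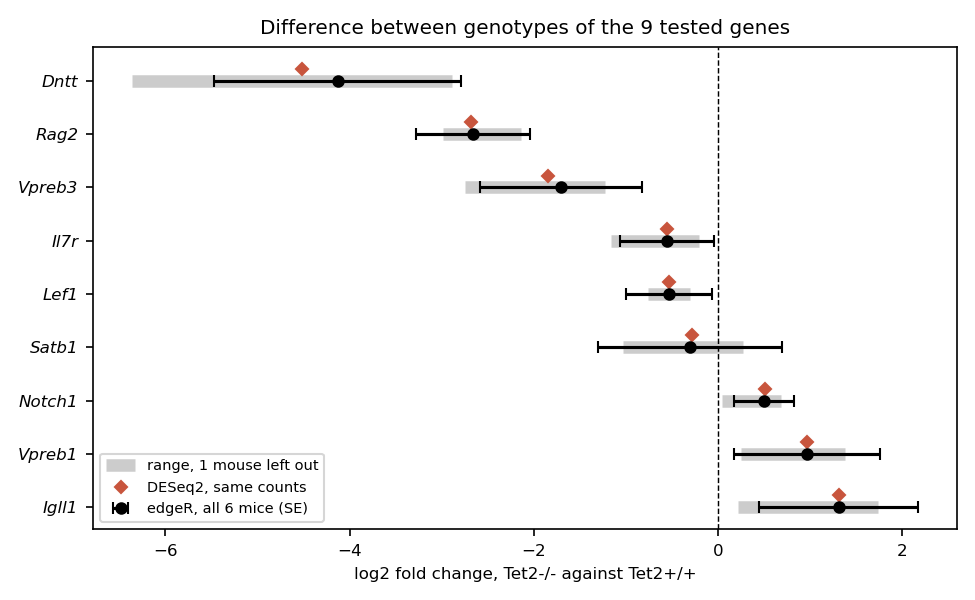
Log2 fold change of Tet2-/- against Tet2+/+ (x axis) for the 9 tested members (y axis). Black points and bars are the edgeR estimates over all 6 mice with their standard errors, grey bars span the estimates with each mouse left out in turn, and red diamonds are DESeq2 estimates on the same counts. *Dntt*, *Rag2* and *Vpreb3* lie lowest, and the grey bar of *Satb1* alone crosses 0.

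Of the V(D)J recombination enzymes, *Rag2* and *Dntt* had the lowest log2 fold changes of the tested members, and neither passed an adjusted p of 0.05 with edgeR. *Rag1* was under the count minimum and was not in that test. The reads of *Rag2*, *Dntt* and *Rag1* are given for each mouse in turn.

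*Rag2* (ENSMUSG00000032864, chromosome 2 from 101624718 to 101632529, + strand, GRCm38), which encodes the regulatory subunit of the recombinase, had 21, 43 and 10 reads in mice 19, 23 and 24 and 6, 5 and 3 reads in mice 5, 7 and 8. As CPM these were 1.26, 2.30 and 0.704 against 0.190, 0.321 and 0.163. Every Tet2-/- mouse lay below every Tet2+/+ mouse, and the deepest library, that of mouse 5, did not stand out.

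The mean of *Rag2* was 1.42 ± 0.812 CPM (SD, n = 3) in Tet2+/+ blasts and 0.225 ± 0.0849 CPM (SD, n = 3) in Tet2-/- blasts. The log2 fold change was -2.66 (standard error, SE, 0.62, p = 0.00345, adjusted p = 0.324, edgeR with Benjamini-Hochberg), and the exact two-sided permutation test gave p = 0.1. Over the pooled reads of each genotype, *Rag2* was 7.84-fold lower, with a 95% interval of 4.39 to 15.0 that covers counting error only. With each mouse left out in turn, its log2 fold change lay between -2.98 and -2.14. The call depended on the tool, since DESeq2 with Benjamini-Hochberg adjustment gave an adjusted p of 0.0356 on the same counts and 0.112 on length-scaled counts.

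*Rag2* is a compact gene whose annotated transcripts share 1 promoter window, shown above. Its longer coding transcript Rag2-201 had 16.5, 30.5 and 10.0 estimated reads in Tet2+/+ mice and 6.0, 1.94 and 3.0 in Tet2-/- mice, with a log2 fold change of -2.75 (SE 0.65, adjusted p = 0.657 from edgeR over transcripts). The shorter coding transcript Rag2-202 took reads in mice 19, 23 and 7 only. The gene B230118H07Rik on the opposite strand covers 6.07% of the *Rag2* exon bases, and the library kit does not mark strand. B230118H07Rik had 3.59, 6.69 and 5.70 CPM in Tet2+/+ mice and 1.17, 2.31 and 5.10 CPM in Tet2-/- mice, so that mice 5 and 7 lay below and mouse 8 within the Tet2+/+ range. The part of its reads in the *Rag2* count was not tested.

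*Rag1* (ENSMUSG00000061311, chromosome 2 from 101638282 to 101649501, - strand), the catalytic subunit of the recombinase, lies 5.75 kb from the 3′ end of *Rag2* in the opposite orientation. It had 2, 2 and 1 reads in Tet2+/+ mice and 0 reads in each Tet2-/- mouse. A count of 0 allows up to 3 reads per library, or up to 0.0914, 0.167 and 0.162 CPM before TMM scaling in mice 5, 7 and 8. The Tet2+/+ values were 0.12, 0.107 and 0.0704 CPM, none above the highest of these limits, so a difference in *Rag1* was not detectable at this depth between single libraries. The exact two-sided permutation test of its CPM gave p = 0.1, the smallest possible. Over the pooled reads of each genotype, 0 reads stood against 5, which allows a ratio of Tet2-/- to Tet2+/+ of up to 0.736 (95% interval, counting error only). All 5 reads were assigned to Rag1-201, its single annotated transcript. The gene B230118H07Rik on the same strand covers 1.21% of the *Rag1* exon bases and had 36 to 125 reads per library. The part of its reads in the *Rag1* count was not tested.

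*Dntt* (ENSMUSG00000025014, chromosome 19 from 41029275 to 41059525, + strand) had 1, 8 and 19 reads in mice 19, 23 and 24 and 2, 0 and 0 reads in mice 5, 7 and 8. As CPM these were 0.0598, 0.428 and 1.34 against 0.0633, 0.0 and 0.0. The genotypes overlapped, because Tet2+/+ mouse 19 had no more *Dntt* than Tet2-/- mouse 5, and mouse 24 held most of the reads.

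The log2 fold change of *Dntt* was -4.13 (SE 1.34, p = 0.0177, adjusted p = 0.543, edgeR with Benjamini-Hochberg), and the exact two-sided permutation test gave p = 0.2. Pooled over mice, 2 reads against 28 made *Dntt* 20.8-fold lower in Tet2-/- blasts, with a counting interval of 5.23 to 180. Its log2 fold change was -2.89 without mouse 24, where it no longer passed an unadjusted p of 0.05, and -6.36 without mouse 5. All *Dntt* reads were assigned to the coding transcript Dntt-202, and 0 to Dntt-201, the transcript whose start lies within 50 bases of the RefSeq start.

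The genes of the surrogate light chain and its partner rested on few reads. *Vpreb1* and *Igll1*, whose products pair with each other, had their highest levels in Tet2-/- mouse 5 and their lowest in Tet2-/- mouse 7, with the 3 Tet2+/+ mice between. *Vpreb3* was lower in every Tet2-/- mouse. The 3 genes together had 9, 8 and 8 reads in Tet2+/+ mice and 38, 3 and 9 reads in Tet2-/- mice.

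*Vpreb1* (ENSMUSG00000059305, chromosome 16 from 16868403 to 16870843, - strand) had 3, 2 and 2 reads in Tet2+/+ mice and 15, 1 and 5 reads in Tet2-/- mice, or 0.179, 0.107 and 0.141 CPM against 0.475, 0.0643 and 0.271 CPM. *Igll1* (ENSMUSG00000075370, chromosome 16 from 16860671 to 16863985, - strand) lies 4.42 kb from it on the same strand and had 2, 2 and 2 reads against 19, 1 and 4 reads, or 0.12, 0.107 and 0.141 CPM against 0.601, 0.0643 and 0.217 CPM. The genotypes overlapped in both genes, and mouse 5 alone accounted for most of the Tet2-/- reads of each.

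The log2 fold change was 0.97 for *Vpreb1* (SE 0.79, adjusted p = 0.797) and 1.31 for *Igll1* (SE 0.86, adjusted p = 0.743), both by edgeR with Benjamini-Hochberg. Without mouse 5 they were 0.25 and 0.22. Pooled over mice, the ratio of Tet2-/- to Tet2+/+ reads was 2.02 for *Vpreb1*, with a counting interval of 0.829 to 5.63, and 2.70 for *Igll1*, with an interval of 1.07 to 8.07. *Vpreb2*, a near-identical copy that matches *Vpreb1* at 97.4% identity over 99.1% of a transcript, was assigned 0 reads in every mouse. *Top3b* on the opposite strand covers 9.01% of the *Vpreb1* exon bases and was far more abundant, at 87.1 to 123 CPM, and the part of its reads in the *Vpreb1* count was not tested.

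*Vpreb3* (ENSMUSG00000000903, chromosome 10 from 75943057 to 75949657, + strand), a small protein of the B lineage that associates with immunoglobulin chains inside the cell, had 4 reads in each Tet2+/+ mouse and 4, 1 and 0 reads in Tet2-/- mice. Scaled for depth these were 0.239, 0.214 and 0.282 CPM against 0.127, 0.0643 and 0.0 CPM. The genotypes did not overlap, which also held for 7.94% of all genes tested in this direction and for 6.41% in the other, and the exact two-sided permutation test gave p = 0.1. The log2 fold change was -1.70 (SE 0.88, adjusted p = 0.667, edgeR with Benjamini-Hochberg), and it was -2.75 without mouse 5 and between -1.81 and -1.23 without any other mouse. All of its reads were assigned to Vpreb3-201.

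*Il7r* (ENSMUSG00000003882, chromosome 15 from 9505788 to 9530176, - strand) encodes the alpha chain of the IL-7 receptor, which lymphoid progenitors use for survival and growth. It had 3.35, 5.35 and 7.96 CPM in Tet2+/+ mice and 6.26, 2.57 and 2.44 CPM in Tet2-/- mice. Mice 7 and 8 lay below every Tet2+/+ mouse, but mouse 5 lay above mice 19 and 23. The log2 fold change was -0.55 (SE 0.51, adjusted p = 0.825, edgeR with Benjamini-Hochberg), and it went to -1.16 when mouse 5 was left out. Leaving out mouse 7, 8 or 24 moved it to -0.34, -0.33 and -0.21 respectively.

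The coding transcript Il7r-201 took between 84.0% and 90.6% of the *Il7r* reads in every mouse but Tet2+/+ mouse 24, in which it took 52.9%. In mouse 24 a coding transcript of almost the same length and start, Il7r-204, took 37.4%, whereas it took 8.33% in mouse 19 and 0.0% in the other 4 mice. Il7r-204 was the single *Il7r* transcript with an unadjusted p under 0.05 (log2 fold change -7.39, SE 2.72, adjusted p = 0.846 from edgeR over transcripts), and mice 23, 5, 7 and 8 had no reads of it. It passed the count minimum through Tet2+/+ mice alone, mainly mouse 24, and the assignment of reads between such similar transcripts may be unstable.

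*Lef1* (ENSMUSG00000027985, chromosome 3 from 131110471 to 131224356, + strand) encodes a nuclear partner of beta-catenin in immature B and T cells. It had 1.02, 1.39 and 0.775 CPM in Tet2+/+ mice and 0.506, 0.964 and 0.760 CPM in Tet2-/- mice. The genotypes overlapped, and the log2 fold change was -0.53 (SE 0.47, adjusted p = 0.818, edgeR with Benjamini-Hochberg). Between 11 and 26 *Lef1* reads were counted per library.

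The *Lef1* reads were split mainly between a pair of transcripts. Lef1-203, a coding transcript from an internal start, took 72.3%, 61.7% and 89.8% of the reads in Tet2+/+ mice and 42.9%, 66.0% and 45.5% in Tet2-/- mice, with overlap. Lef1-205, a noncoding transcript that keeps an intron and begins at the same place, took 16.3%, 21.3% and 10.2% in Tet2+/+ mice and 57.1%, 34.0% and 54.5% in Tet2-/- mice, without overlap (exact two-sided permutation test, p = 0.1, the smallest possible). Among 58034 tested transcripts of genes with more than 1 annotated transcript, 5.1% had shares without overlap in this direction and 6.2% in the other. In level, neither passed the test (Lef1-205, log2 fold change 0.80, adjusted p = 0.981, and Lef1-203, log2 fold change -0.91, adjusted p = 0.917, edgeR over transcripts). The difference of the mean shares of Lef1-205 was 32.6 percentage points and lay between 28.3 and 39.9 with each mouse left out in turn. Each share rests on few reads, as in mouse 24 with 1 of 11 rounded reads (exact 95% binomial interval 0.23% to 41.3%) and in mouse 8 with 8 of 14 (28.9% to 82.3%). Lef1-204, the coding transcript from the upstream CpG-rich region, took reads in Tet2+/+ mice 19 and 23 only, at 11.4% and 17.0%. The antisense gene Gm43352 covers 13.7% of the *Lef1* exon bases and had 2 reads in mouse 24 and 0 in the other mice.

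*Notch1* (ENSMUSG00000026923, chromosome 2 from 26457903 to 26516663, - strand), the receptor that commits progenitors to the T lineage and is also present on many other cells, had the most reads of the members. It had 183, 135 and 167 CPM in Tet2+/+ mice and 162, 351 and 171 CPM in Tet2-/- mice. Only mouse 7 stood above the Tet2+/+ range. The log2 fold change was 0.50 (SE 0.33, adjusted p = 0.743, edgeR with Benjamini-Hochberg), and without mouse 7 it was 0.04.

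Within *Notch1*, the full-length coding transcript Notch1-201 took 96.8%, 96.7% and 95.6% of the reads in Tet2+/+ mice and 95%, 94% and 94.8% in Tet2-/- mice. These shares did not overlap (exact two-sided permutation test, p = 0.1), which also held for 6.2% of such transcripts in this direction, and the difference of the means, 1.77 percentage points, was small. The short noncoding transcript Notch1-204 took 0.254%, 0.0% and 0.0% against 0.531%, 0.859% and 0.737%, also without overlap, as for 5.1% of such transcripts in this direction. Its estimated reads were 7.76, 0.0 and 0.0 in Tet2+/+ mice and 27.2, 46.9 and 23.2 in Tet2-/- mice, with a log2 fold change of 3.33 (SE 1.53, adjusted p = 0.846 from edgeR over transcripts), so that it passed the count minimum mainly through Tet2-/- mice. The antisense transcripts Gm13568 and 0610009E02Rik cover 2.91% and 7.5% of the *Notch1* exon bases, and neither exceeded 2.44 CPM in any mouse.

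*Satb1* (ENSMUSG00000023927, chromosome 17 from 51736187 to 51833290, - strand) encodes a chromatin organizer of thymocytes and lymphoid-primed progenitors. It had 1099, 1371 and 938 reads in Tet2+/+ mice and 2026, 1571 and 35 reads in Tet2-/- mice 5, 7 and 8. As CPM these were 65.7, 73.4 and 66.0 against 64.1, 101 and 1.90. Mouse 8 was at 2.56% of the mean of the other 5 mice and 33.7-fold below the lowest of them, while mouse 5 was close to the Tet2+/+ mice and mouse 7 was above them.

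With all 6 mice, the log2 fold change of *Satb1* was -0.30 with an SE of 1.0 (adjusted p = 0.965, edgeR with Benjamini-Hochberg). Without mouse 8 it was 0.27 (adjusted p = 0.756, edgeR), and without mouse 7 it was -1.03. The spread within genotypes was 68.4 ± 4.34 CPM (SD, n = 3) in Tet2+/+ blasts and 55.7 ± 50.1 CPM (SD, n = 3) in Tet2-/- blasts.

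The low level in mouse 8 extended over the transcripts of *Satb1*. Of 10 *Satb1* transcripts with reads in any mouse, 4 had reads in mouse 8. Satb1-204, the coding transcript with most reads, was among these, with 511, 620 and 407 estimated reads in Tet2+/+ mice, 1082 and 688 in mice 5 and 7, and 13.3 in mouse 8. Satb1-208, the coding transcript that begins in the CpG-rich window printed above, had 242, 63.5, 217, 380 and 331 estimated reads in mice 19, 23, 24, 5 and 7 and 0.0 in mouse 8. Satb1-213, from a start with 3 CpG, was assigned reads in 2 mice only, with 241 in Tet2+/+ mouse 23 and 17.7 in mouse 8, where it took 50.5% of the few reads left. In mouse 23 Satb1-208 had its lowest count outside mouse 8, and the split of reads between Satb1-208 and Satb1-213 by Salmon may be unstable, so the values of single starts are uncertain.

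The neighbours of *Satb1* did not share its level in mouse 8. Among the nearest annotated genes, 6 had at least 10 CPM in each of the other mice. Relative to the mean of the other 5 mice, mouse 8 had 83.2% of *Tbc1d5*, 68.6% of *Plcl2* and 174% of *Rftn1* on one side. On the other side it had 106% of *Rab5a*, 102% of *Kat2b* and 104% of *Sgo1*. The other members that were lowest in mouse 8 were *Rag1* (tied with mice 5 and 7), *Rag2*, *Dntt* (tied with mouse 7), *Vpreb3* and *Il7r*, so that mouse 8 had the lowest value of 6 members in all.

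**Figure D4:**
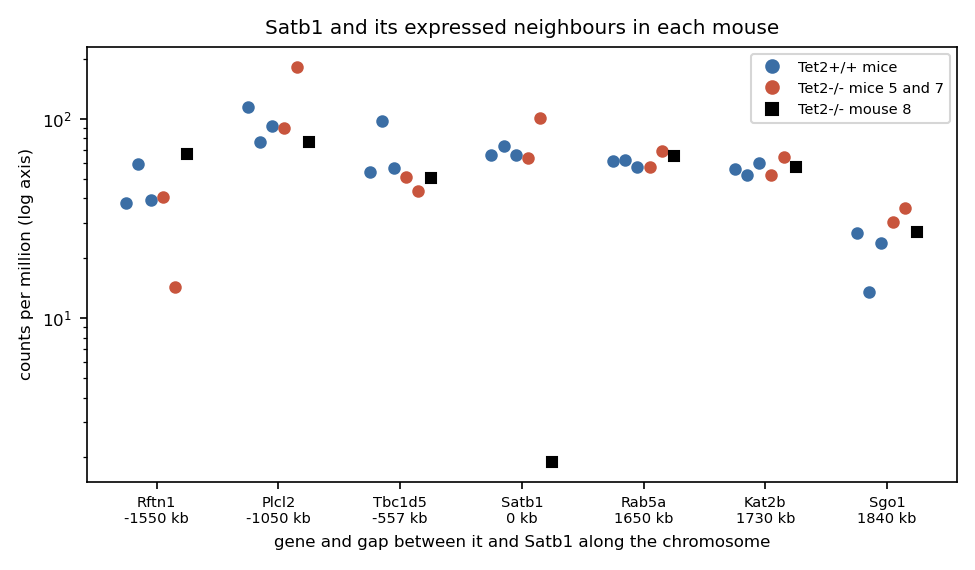
CPM (y axis, log scale) of *Satb1* and its 6 expressed neighbours in each mouse, ordered along the chromosome with the gap in kb between the annotated ends of each gene and of *Satb1* that face each other (x axis, negative before *Satb1*). Blue points are Tet2+/+ mice, red points Tet2-/- mice 5 and 7, and black squares Tet2-/- mouse 8, which has 1.90 CPM of *Satb1* against 64.1 to 101 CPM in the other mice and lies among or near the other mice in each neighbour.

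Markers of mature lymphoid cells were examined in the same libraries, since some of the members are also expressed by such cells. In no list was a marker called by edgeR at an adjusted p under 0.05, and counts of negative log2 fold changes stand beside 49.9% of all genes tested. Counts at an unadjusted p under 0.05 (edgeR) stand beside 5.12% of all genes lower and 3.0% higher. Of 11 B cell markers, 10 had negative log2 fold changes (median -0.71) and 2 an unadjusted p under 0.05, and their summed level was 53.2 to 125 CPM in Tet2+/+ mice and 38.6 to 78.9 CPM in Tet2-/- mice. *Cd79a*, a chain of the B cell receptor, had 9.69, 12.2 and 3.8 CPM against 10.5, 2.96 and 2.17 CPM, and its partner chain *Cd79b*, the most abundant marker of the list, overlapped with a log2 fold change of 0.09. The pair with an unadjusted p under 0.05 did not overlap. *Fcer2a*, the low-affinity IgE receptor of B cells, had 1.2, 7.44 and 3.1 CPM against 0.601, 0.772 and 0.651 CPM (log2 fold change -2.53, adjusted p = 0.451, edgeR), and *Bank1*, a B cell scaffold protein, had 12.7, 22.3 and 18.4 CPM against 5.85, 11.4 and 10.9 CPM (log2 fold change -0.93, adjusted p = 0.591, edgeR). Of 10 NK and innate lymphoid markers, 9 had negative log2 fold changes (median -0.82) and 2 an unadjusted p under 0.05. Their sum separated the genotypes at 40.2 to 43.6 CPM against 13.9 to 35.1 CPM. Of the partner lists below, the sum of early B and pre-B receptor partners was also separate (1640 to 2290 against 1280 to 1330 CPM). The sum of the LEF and TCF list was separate in the other direction (1150 to 1190 against 1240 to 1360 CPM). A background share for such sums was not computed. *Ncr1*, an NK receptor, had a log2 fold change of -2.12 (SE 0.48, adjusted p = 0.321, edgeR with Benjamini-Hochberg).

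Of 8 tested plasmacytoid dendritic cell markers, 6 had negative log2 fold changes (median -0.94) and 2 an unadjusted p under 0.05, with a sum of 27.7 to 57.9 CPM against 22.6 to 59.8 CPM. *Siglech*, a receptor of these cells, had 2.09, 2.41 and 1.62 CPM against 0.316, 0.386 and 0.434 CPM, whereas the more abundant *Bst2* and *Tcf4* of this list overlapped, with log2 fold changes of 0.05 and 0.22. Of 7 plasma cell markers, 6 had negative log2 fold changes (median -0.88) and 2 an unadjusted p under 0.05, with a sum of 274 to 377 CPM against 199 to 359 CPM, much of it from *Xbp1*, a factor of secretory cells with a log2 fold change of 0.55. *Jchain*, the joining chain of secreted immunoglobulin, had 98.5, 165 and 135 CPM against 44.1, 27.6 and 26.6 CPM (log2 fold change -2.02, adjusted p = 0.116, edgeR), and *Mzb1*, a chaperone of immunoglobulin assembly, had a log2 fold change of -2.71 (adjusted p = 0.546, edgeR). Of 10 T cell markers, 5 had negative log2 fold changes (median -0.01) and 0 an unadjusted p under 0.05 with edgeR, with a sum of 34.6 to 42.9 CPM against 23.3 to 45.3 CPM. Of the 4 erythroid markers tested, all had negative log2 fold changes (median -2.16) and 1 an unadjusted p under 0.05, with a sum of 2.68 to 53.0 CPM against 4.45 to 5.76 CPM, the highest in mouse 19. No marker in these lists was at 0 in every mouse. The part of such cells in the values of *Rag2*, *Dntt*, *Vpreb3*, *Il7r* and of *Ighm*, a gene that plasma cells also express, was not tested. The sum of the myeloid markers overlapped, at 7740 to 9790 CPM in Tet2+/+ mice and 7170 to 10700 CPM in Tet2-/- mice. Within that list *Mpo* (log2 fold change -0.49, adjusted p = 0.664, edgeR) and *Cd34* (log2 fold change -1.41, adjusted p = 0.582, edgeR) were lower in every Tet2-/- mouse, while *Elane* had a log2 fold change of 1.19 with overlap, and the part of such differences in the members' values was not tested.

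The partner genes of the members were read from 7 lists of 147 genes in all, of which 141 were tested. With edgeR 0 of them were called at an adjusted p under 0.05, and at an unadjusted p under 0.05 there were 9 lower and 4 higher, or 9.22% beside 8.11% of all genes. DESeq2 on the same counts called 3 of them (*Ighm* and *Ikzf2* lower, *E2f2* higher), beside 1.74% of all genes.

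Early B and pre-B receptor partners had negative log2 fold changes in 15 of 19 tested genes, with a median of -0.64 beside 0.0 for all genes. *Ighm*, the immunoglobulin mu heavy chain that the surrogate light chain binds, had 640, 852 and 760 CPM in Tet2+/+ mice and 256, 307 and 261 CPM in Tet2-/- mice, without overlap. Its log2 fold change was -1.45 (SE 0.20, adjusted p = 0.108, edgeR with Benjamini-Hochberg), and DESeq2 gave an adjusted p of 5.29e-09. *Myb*, a transcription factor of progenitors, had 254, 272 and 333 CPM against 192, 198 and 162 CPM (log2 fold change -0.64, adjusted p = 0.487, edgeR), and *Btk*, a kinase downstream of the receptor, had a log2 fold change of 0.00.

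Of 17 general cofactors and enzymes that complete V(D)J recombination, 13 had positive log2 fold changes, with a median of 0.13, and 0 passed an unadjusted p under 0.05 with edgeR in either direction. *Hmgb1* and *Hmgb2*, DNA-bending cofactors of the recombinase, had log2 fold changes of 0.02 and 0.55.

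Of 18 genes of IL-7 and TSLP receptor signalling, 12 had positive log2 fold changes, with a median of 0.16. *Ccnd3*, a cyclin downstream of the receptor in pre-B cells, had 347, 270 and 255 CPM against 551, 763 and 386 CPM (log2 fold change 0.96, adjusted p = 0.5, edgeR). *Mcl1*, a survival protein, had 375, 351 and 343 CPM against 473, 560 and 454 CPM (log2 fold change 0.48, adjusted p = 0.592, edgeR). In both the genotypes did not overlap, whereas *Il7r* itself overlapped.

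Of 28 Notch pathway genes, 18 had positive log2 fold changes, with a median of 0.15, and *Maml2*, a coactivator of NOTCH, was the single gene with an unadjusted p under 0.05 (log2 fold change -1.0, adjusted p = 0.604, edgeR). Of 19 LEF and TCF factors and beta-catenin partners, 11 had positive log2 fold changes, with a median of 0.06, and *Pygo2*, a beta-catenin cofactor, was the single one with an unadjusted p under 0.05 (log2 fold change 0.41, adjusted p = 0.604, edgeR). Of 13 SATB and chromatin loop factors, 11 had positive log2 fold changes, with a median of 0.13 and 0 with an unadjusted p under 0.05 (edgeR). Scaling by library size alone shifts the median of all genes to -0.17, so the direction of medians this close to 0 is not fixed by these data.

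Of 28 tested factors and receptors of lymphoid-primed multipotent progenitors, 6 were lower and 1 higher at an unadjusted p under 0.05 (edgeR). Of all genes tested, 5.12% were lower and 3.0% higher at this threshold. This was the largest such count, in lists of unequal size, and the median was -0.22. *Ikzf2*, a factor of the Ikaros family, had 24.5, 65.5 and 59.1 CPM in Tet2+/+ mice and 14.4, 9.58 and 4.23 CPM in Tet2-/- mice, with a log2 fold change of -2.39 (SE 0.53, adjusted p = 0.311, edgeR with Benjamini-Hochberg, and 0.00135 from DESeq2). *Cd34*, a surface protein of progenitors, had 170, 310 and 193 CPM against 90.0, 32.1 and 132 CPM, and *Runx1*, a core hematopoietic factor, had 134, 107 and 101 CPM against 84.1, 88.2 and 86.5 CPM. *E2f2*, a cell cycle factor, was the single gene of this list that was higher at an unadjusted p under 0.05 (edgeR), at 173, 104 and 105 CPM against 274, 381 and 235 CPM. *Gata3*, needed for early T cells, and *Id2*, an inhibitor of E proteins, had log2 fold changes of -1.20 and -0.69.

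**Figure D5:**
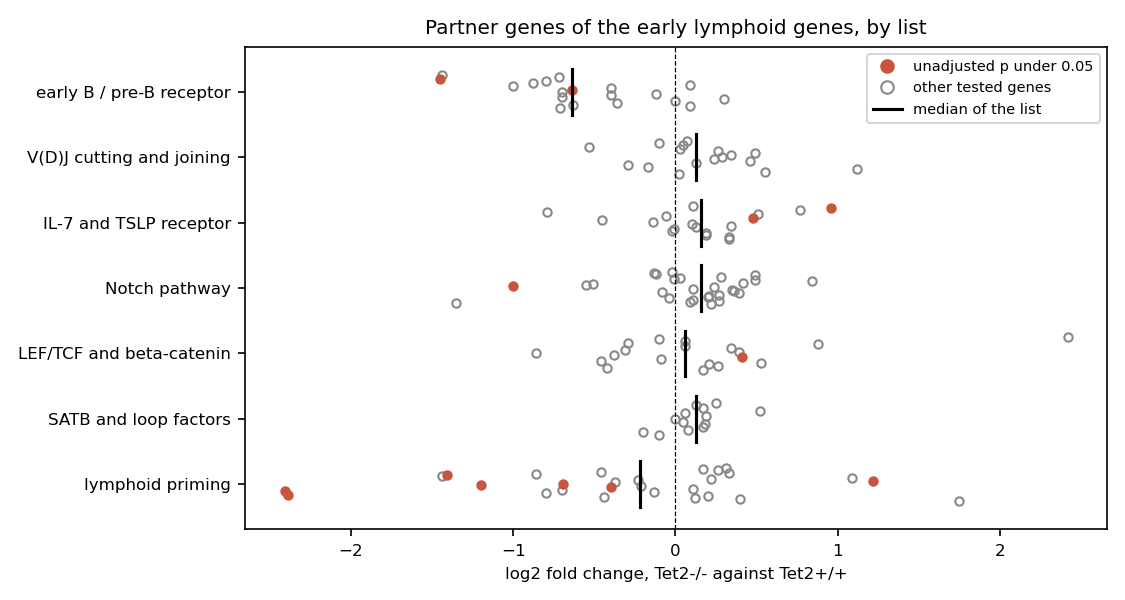
Log2 fold change of Tet2-/- against Tet2+/+ (x axis) of each tested partner gene in 7 lists (y axis, points spread vertically for legibility). Filled red points have an unadjusted edgeR p under 0.05, open points do not, and black bars are list medians. The early B and pre-B receptor partners have the lowest median, -0.64, and the lists of V(D)J, IL-7, Notch, LEF/TCF and SATB partners have medians between 0.06 and 0.16.

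Across the transcripts of the members, 50 were annotated, 37 had reads in any mouse and 27 were tested. Of all transcripts, 5.28% had an unadjusted p under 0.05 in either direction (edgeR). The 3 member transcripts that reached it were Rag2-201, Dntt-202 and Il7r-204, all lower in Tet2-/- blasts. Dntt-202 and Il7r-204 passed the count minimum through Tet2+/+ mice alone. Rag2-201 had 6.0, 1.94 and 3.0 estimated reads in Tet2-/- mice 5, 7 and 8. The direction of these 3 was therefore favoured by the filter and is a description only. At an adjusted p under 0.05 edgeR called 0 of the 27, beside 0.0% of 66893 transcripts tested.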

How the data were processed

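The authors sequenced libraries of polyadenylated RNA from sorted blasts (TruSeq RNA v2, without strand information, NextSeq 500) and estimated transcript abundance with Salmon 0.12.0 on Ensembl transcripts of GRCm38. Each deposited file held an estimated count per transcript, not normalized between mice, and a TPM value that the authors' Salmon run scaled by effective length. Here, estimated counts of 136288 transcripts were summed to GENCODE M21 genes and rounded. The 112 transcripts without a gene held between 0.0307% and 0.0416% of reads and were left out. Genes with a scaled count sum of at least 10 were compared with edgeR 4.0.16 (quasi-likelihood test, TMM factors 0.867 to 1.11, biological coefficient of variation 43.6%) in R 4.3.3, without covariates, with Benjamini-Hochberg adjustment. No batch is given for the samples. Alternatives used DESeq2 1.42.0, length-scaled counts, other filters and scalings, robust estimation, limma 3.58.1 on log2(TPM + 1) and log2(TPM + 0.1), and each mouse left out in turn. On simulated data of 21438 genes, edgeR recovered 76.5% of 200 genes with a log2 change of 2, and DESeq2 recovered 82%. Where no change was simulated, edgeR called 0 genes and DESeq2 called 7. Copies were sought at 95% identity over 50% of a transcript. The members and lists were chosen with earlier results of these data known. Named beside the members are, per list, the 3 most abundant genes and those with an unadjusted p under 0.05, up to 6, from which a selection is described, and the neighbours of *Satb1*.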

Additional observations from a re-analysis of the deposited data

How the results depend on the processing

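Of 140 alternative estimates of the 9 tested members, 138 kept their direction and did not pass the adjusted threshold. DESeq2 gave no adjusted p for *Vpreb1*, *Vpreb3* and *Igll1* on the same counts, nor for *Vpreb3* on length-scaled counts. These estimates are counted as not passing. Their sizes moved more, with log2 fold changes over the other settings of -2.85 to -0.33 for *Rag2*, -4.53 to -0.22 for *Dntt*, -1.87 to -0.34 for *Vpreb3*, 0.13 to 0.99 for *Vpreb1*, 0.17 to 2.12 for *Igll1*, -0.81 to -0.48 for *Il7r*, -0.72 to -0.12 for *Lef1*, 0.3 to 0.8 for *Notch1* and -1.58 to -0.12 for *Satb1*. For *Rag2*, *Dntt*, *Vpreb1*, *Vpreb3*, *Igll1* and *Lef1* the values nearest 0 came from log2(TPM + 1), on which low genes differ less by construction. With a mouse left out, *Dntt* lay between -6.36 and -2.89, *Igll1* between 0.22 and 1.74 and *Lef1* between -0.76 and -0.30. Summing *Vpreb1* with *Vpreb2* is not counted, since *Vpreb2* had 0 reads and could not move it. *Rag2* passed the threshold with DESeq2 on the same counts, and *Satb1* turned to 0.27 without Tet2-/- mouse 8, with a range from -1.03 to 0.27 over the mice left out. The number of members called was 0 in every other alternative and 1 with DESeq2 on the same counts, and 0 with each mouse left out. The median log2 fold change of the members lay between -0.74 and -0.22 over the other settings and between -0.76 and -0.30 with a mouse left out. Genes called lower numbered 10 with edgeR, 326 with DESeq2 on the same counts, 322 with DESeq2 and 5 with edgeR on length-scaled counts, 62 without the filter, and 0 to 7 with a mouse left out, with 2 without mouse 23, 1 without mouse 24 and 0 without mouse 5, 7 or 8. Genes called higher numbered 0 with edgeR, 59 with DESeq2 on the same counts, 64 with DESeq2 on length-scaled counts, 4 without the filter, and 1 each with filterByExpr and with RLE factors. Genes of the 7 partner lists called numbered 0, and 3 with DESeq2 on the same counts, 4 with DESeq2 on length-scaled counts (*Pax5* in addition) and 1 without the filter (*Ighm*). The cause of these differences was not tested. No paired analysis was possible because the mice of the 2 genotypes share no replicate numbers. Depth limits *Rag1*, *Dntt*, *Vpreb1*, *Vpreb3* and *Igll1*, which had 5, 30, 28, 17 and 30 reads over all 6 libraries.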

Other observations

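Losses in 1 mouse of the kind seen for *Satb1* were counted over all genes, by a rule chosen after the values of *Satb1* were seen. A gene was counted where 1 mouse lay at least 20-fold below the lowest of the other 5 and those had at least 10 CPM each. Mouse 8 had 5 such genes, mice 19 and 7 had 1 each, and mice 23, 24 and 5 had 0. Those of mouse 8 were *Satb1*, *Dmc1*, *Sri*, *Zmynd11* and *Dach1*. *Dmc1*, a meiotic recombinase, had between 28.6 and 67.9 CPM in the other mice and 0.0543 in mouse 8. *Sri*, the calcium-binding protein sorcin, had between 98.0 and 257 CPM and 1.41 in mouse 8. *Zmynd11*, a chromatin reader, had between 48.0 and 120 CPM and 1.84 in mouse 8, and *Dach1*, a nuclear cofactor, had between 10.8 and 119 CPM and 0.109 in mouse 8. In mouse 7 the gene was *Erbb3*, a growth factor receptor, with 0.0 CPM against 13.3 to 24.9 in the others, and in mouse 19 it was Gm9385, with 0.0 CPM against 20.8 to 40.0.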
